A study of Mus musculus with 6 samples.

Results

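The enzymes by which macrophages use arginine, make itaconate and make or remove superoxide were examined through 7 genes of a set of 9, among the 31130 genes in the count tables. The genes were the arginine transporter Slc7a2, the arginine-making enzyme Ass1, the nitric oxide synthase Nos2 and its cofactor enzyme Gch1, the itaconate-making enzyme Acod1, the oxidase subunit Cybb and the superoxide dismutase Sod2. They were taken by symbol, but they were chosen by their known roles with this contrast already measured, so their values in the comparison of the groups are a description and carry no test. Lung tumors of 3 LC mice and 3 IP + LC mice were taken on day 21, and the purpose of the comparison was to see how interstitial pneumonia (IP) alters a lung cancer (LC). All mice were female wild-type C57BL/6 mice aged 6 to 8 weeks, and all received cells of the mouse line Lewis lung carcinoma (LLC), labelled with enhanced green fluorescent protein, in the left lung on day 14. Only the IP + LC group had received bleomycin, which damages lung tissue and causes fibrosis, in a dose of 2.0 mg/kg 14 days earlier. Both groups rest on 1 injected cell line, and each library was made from whole tissue, which holds tumor cells, macrophages and remaining lung together. A group that received bleomycin without cancer cells was not analysed here.

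Macrophages take up arginine through cationic transporters. Nitric oxide synthase 2 turns it into nitric oxide and citrulline with tetrahydrobiopterin as a cofactor, and argininosuccinate synthase starts the way back from citrulline to arginine. Itaconate is made in mitochondria from cis-aconitate, an intermediate of the tricarboxylic acid cycle, and the NADPH oxidase of phagocytes makes superoxide, which the dismutases turn into hydrogen peroxide.

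Unique molecular identifiers (UMIs), each of which marks 1 captured RNA molecule, were counted per gene. The libraries held 592733 to 1379759 UMIs in the LC group and 1336919 to 1631066 in the IP + LC group, and the smallest was LC replicate 1. Levels are given as counts per 1000000 UMIs (CPM) after scaling of the libraries by the trimmed mean of M values (TMM). A count of 0, which allows a level of up to 3 UMIs, corresponded to at most 5.17 CPM in LC replicate 1 and 1.75 to 2.54 CPM in the other libraries. These limits and the intervals of shares and ratios below cover counting error only. LC replicate 1 stood apart from its group in the correlations that follow. Its lower depth and a difference of the tumor cannot be told apart as the reason. Across the tested genes, which are not independent replicates, its Pearson's r was 0.840 and 0.799 with the other LC tumors and 0.796 to 0.822 with the IP + LC tumors, whereas the other LC tumors had r = 0.962 with each other.

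Of the 7 genes, 5 had an entry in the RefSeq table of promoters on GRCm38.p6, which gives 250 bases before and 50 bases from an annotated RefSeq start. These were Acod1, Ass1, Cybb, Gch1 and Sod2. Nos2 and Slc7a2 were not matched. The windows of Acod1 and Cybb are shown because Acod1 had the largest ratio between the groups and the window of Cybb held the most matches to the motifs searched. The Acod1 window is chr14:103046762-103047061 on the plus strand, and its capitals mark a match to TATAAA and a match to CACGT, the reverse complement of ACGTG. The Cybb window is chrX:9469275-9469574 on the minus strand, and its capitals mark 3 matches to GAAANNGAA or its reverse complement TTCNNTTTC. The start in the Cybb window, at position 9469324, is also that of the GENCODE transcript Cybb-201 and lies 18447 bases inside the span of the gene given below, which begins with a longer transcript. The start in the Sod2 window lies 993 bases inside its gene span. Both sequences are written 5′ to 3′.
Acod1: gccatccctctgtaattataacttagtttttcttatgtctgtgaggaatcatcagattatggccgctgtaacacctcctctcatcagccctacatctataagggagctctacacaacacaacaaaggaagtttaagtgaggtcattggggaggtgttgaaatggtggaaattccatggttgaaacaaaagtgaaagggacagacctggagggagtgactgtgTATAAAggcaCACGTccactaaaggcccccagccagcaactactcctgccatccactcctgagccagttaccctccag
Cybb: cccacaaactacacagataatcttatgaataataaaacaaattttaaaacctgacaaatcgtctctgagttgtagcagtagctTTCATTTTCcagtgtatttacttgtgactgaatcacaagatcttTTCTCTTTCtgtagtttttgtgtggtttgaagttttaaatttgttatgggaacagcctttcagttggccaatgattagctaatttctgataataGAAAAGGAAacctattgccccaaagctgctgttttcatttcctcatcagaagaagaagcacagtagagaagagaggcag
Both strands were searched for 5 motifs. The patterns with N can overlap one another, but of the matches found only those to ACGTG and its reverse complement in Ass1 overlapped. The core of the kind of site that hypoxia-inducible factors bind, ACGTG, was in 19.6% of the 32851 promoters in the table, the TATA box TATAAA in 13.6%, the interferon regulatory factor pattern GAAANNGAA in 8.56%, the gamma-activated pattern TTCNNNGAA in 8.30% and the NF-kB pattern GGGANTTTC in 1.11%. In Acod1 the TATAAA match ran from -28 to -23 and the CACGT match from -18 to -14, counted from the RefSeq start. In Cybb the matches to the interferon regulatory factor pattern began at -167, -123 and -29. The window of Sod2 held TTCCCAGAA, a match to the gamma-activated pattern, at -185 to -177, that of Ass1 held overlapping matches to ACGTG in both orientations at -36 to -31, and that of Gch1 held a reverse match to TATAAA at -188 to -183. The other motifs had no match in the respective window. A match describes letters, and binding was not measured.

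Among the 7 genes, 6 had a higher level in every IP + LC tumor than in any LC tumor. These were Ass1, Nos2, Gch1, Acod1, Cybb and Sod2. Of all 11240 genes tested, 21.6% had all IP + LC tumors above all LC tumors. Slc7a2 overlapped between the groups. In the comparison across all genes by edgeR's quasi-likelihood test at a Benjamini-Hochberg adjusted p-value of 0.1, all 7 genes had enough UMIs for the test, and 5 of them were called higher (Ass1, Nos2, Gch1, Acod1 and Cybb) and 0 lower, against 16.8% of all tested genes called higher and 19.6% called lower. The number called lower was also 0 at an unadjusted p-value of 0.05 in edgeR and at an adjusted p-value of 0.1 in DESeq2. Acod1 and Nos2 passed the filter on low counts only through the IP + LC group, so nothing is read from these counts of members.

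**Figure D1:**
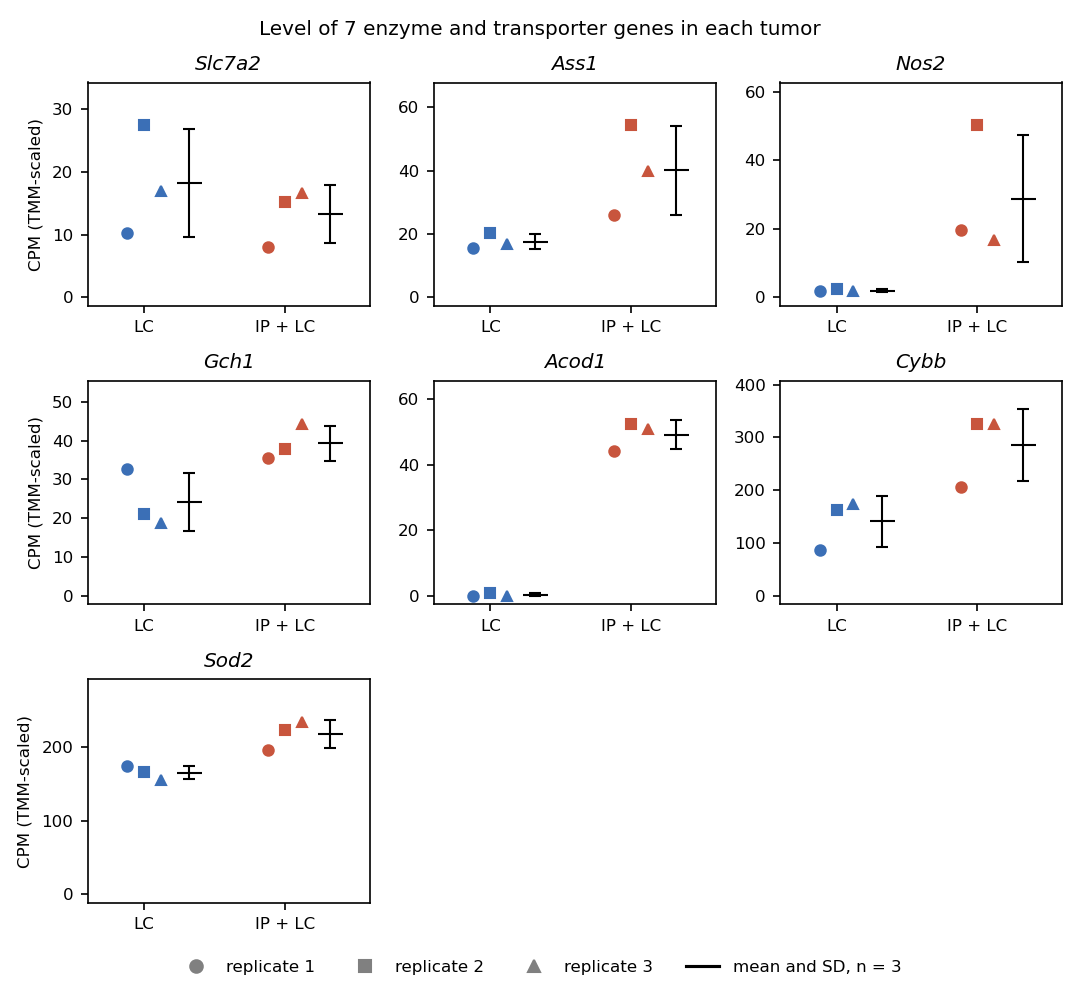
Level of each of the 7 genes in each tumor, in CPM after TMM scaling, with LC in blue and IP + LC in red. The symbol shape marks the replicate and the bars give the mean and SD of 3 tumors. Acod1 was at 0 to 0.783 CPM in LC and 44.2 to 52.5 CPM in IP + LC, and Slc7a2 overlapped between the groups.

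Slc7a2 encodes a cationic amino acid transporter that brings arginine into cells (chromosome 8, 40862396 to 40922308, plus strand, GRCm38). Its level was 10.3, 27.4 and 16.9 CPM in LC replicates 1, 2 and 3, and 7.98, 15.2 and 16.7 CPM in IP + LC replicates 1, 2 and 3. The ranges of the groups overlapped, and LC replicate 2 was the highest tumor. The mean was 18.2 ± 8.62 CPM in LC and 13.3 ± 4.66 CPM in IP + LC (SD, n = 3 each), and the log2 fold change was -0.53 with a standard error (SE) of 0.40 and a 95% interval of -1.44 to 0.37. A share of 6.95% of its exonic bases lies opposite to another gene, Gm26584. The interval held 0 and Slc7a2 was not called, but without LC replicate 1 it was called lower, with a log2 fold change of -0.72, whereas it was at -0.11 when LC replicate 2 was left out.

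Ass1, argininosuccinate synthase, joins citrulline and aspartate and so feeds the remaking of arginine (chromosome 2, 31470207 to 31520672, plus strand). Its level was 15.5, 20.4 and 16.9 CPM in the LC tumors and 26.1, 54.3 and 39.9 CPM in the IP + LC tumors. All IP + LC tumors lay above the LC tumors, and they differed among themselves more than the LC tumors did. The means were 17.6 ± 2.50 and 40.1 ± 14.1 CPM, a ratio of 2.28, and the log2 fold change was 1.17 (SE 0.32, 95% interval 0.45 to 1.88). Ass1 shares 73.1% of its longest coding transcript at 95% identity or more with Gm5424, so its counts are uncertain where reads matched both. Asl, which completes this route, was not called, at 30.2 ± 5.41 CPM in LC and 29.8 ± 2.88 CPM in IP + LC.

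Nos2, the inducible nitric oxide synthase, lies on chromosome 11, 78920787 to 78960254, plus strand. It had 1, 3 and 2 UMIs in the LC tumors and 27, 86 and 23 UMIs in the IP + LC tumors, which corresponded to 1.72, 2.35 and 1.69 CPM and to 19.6, 50.2 and 16.7 CPM. Each LC tumor was at or below 3 UMIs, and IP + LC replicate 2 was the highest of all. Because the LC group held only 6 UMIs, the groups were compared by the ratio of their pooled UMIs after scaling, which was 15.4 (95% counting interval 6.90 to 42.7). Without IP + LC replicate 2 this ratio was 9.34 (4.0 to 26.6).

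Gch1 encodes GTP cyclohydrolase 1, which starts the synthesis of tetrahydrobiopterin (chromosome 14, 47153895 to 47189413, minus strand). Its level was 32.7, 21.2 and 18.6 CPM in the LC tumors and 35.5, 37.9 and 44.3 CPM in the IP + LC tumors. The groups did not overlap, but LC replicate 1 lay close to the lowest IP + LC tumor. The means were 24.2 ± 7.51 and 39.3 ± 4.53 CPM, and the log2 fold change was 0.76 (SE 0.26, 95% interval 0.19 to 1.34). Its call was lost when any tumor other than LC replicate 1 was left out.

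Acod1, aconitate decarboxylase 1, makes itaconate and lies on chromosome 14, 103046977 to 103056573, plus strand. It had 0, 1 and 0 UMIs in the LC tumors and 61, 90 and 70 UMIs in the IP + LC tumors. The IP + LC levels were 44.2, 52.5 and 50.8 CPM, with a mean of 49.2 ± 4.38 CPM (SD, n = 3), and so lay close together. The only LC tumor with a UMI was replicate 2, at 0.783 CPM. The ratio of pooled UMIs after scaling was 150.2, with a 95% counting interval of 26.7 to 5958, since the LC group rests on 1 UMI. Without LC replicate 3 the ratio was 90.7 (16.1 to 3599), and without LC replicate 2 the LC group had no UMI left.

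Cybb encodes gp91phox, the catalytic subunit of the phagocyte NADPH oxidase (chromosome X, 9435252 to 9487771, minus strand). Its level was 86.1, 162 and 175 CPM in the LC tumors and 207, 326 and 325 CPM in the IP + LC tumors. Replicate 1 was the lowest of its group in both groups, and the groups did not overlap. The means were 141 ± 47.9 and 286 ± 68.6 CPM, a ratio of 2.03, and the log2 fold change was 1.00 (SE 0.30, 95% interval 0.32 to 1.69).

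Sod2, the mitochondrial superoxide dismutase (chromosome 17, 13006846 to 13040063, plus strand), was at 174, 167 and 156 CPM in the LC tumors and 196, 223 and 234 CPM in the IP + LC tumors. The groups did not overlap, but the highest LC and the lowest IP + LC tumor were close. The means were 166 ± 9.07 and 218 ± 19.2 CPM, a ratio of 1.32. At 95% identity or more, Sod2 shares 6.16% of its longest coding transcript, and up to 76.6% of a transcript, with other genes. The log2 fold change of 0.40 (SE 0.19) had a 95% interval of -0.03 to 0.82, and Sod2 was not called. It was called with library size in place of TMM, at a log2 fold change of 0.55. That scaling moved the median over all tested genes from 0.02 to 0.18, and the calls over all genes from 1885 higher and 2203 lower to 2520 higher and 1800 lower.

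The calls of several genes changed when single tumors were left out. Without IP + LC replicate 2, Ass1, Gch1 and Cybb were not called, at log2 fold changes of 0.90, 0.80 and 0.93. Without IP + LC replicate 3, Gch1 and Cybb were not called. Without LC replicate 1, 6 genes were called higher, with Sod2 added.

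The summed level of 12 macrophage markers was higher in every IP + LC tumor than in any LC tumor. In bulk tissue, fewer cells of a type and less RNA per cell cannot be told apart. Of 12 macrophage markers, 6 rose and 0 fell in the IP + LC tumors, and their summed level was 2588, 1016 and 773 CPM in LC replicates 1, 2 and 3 and 2643, 3324 and 2973 CPM in the IP + LC tumors. LC replicate 1 was close to the IP + LC tumors in this sum. In the same tumor Gch1 (32.7 CPM) and Sod2 (174 CPM) were the highest of the LC group. Cybb (86.1 CPM) and Ass1 (15.5 CPM) were there the lowest of the 6 tumors, and Slc7a2 (10.3 CPM) was the lowest of the LC group. Nos2 was at 1.72 CPM against 1.69 CPM in LC replicate 3. Acod1 was at 0 UMIs, which allows up to 5.17 CPM in this smallest library. Of 5 monocyte markers, 4 rose and 1 fell, with sums of 499 to 566 CPM in LC and 723 to 971 CPM in IP + LC. All 10 markers of alveolar macrophages fell, from sums of 1843 to 2319 CPM to 279 to 534 CPM.

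Other cell types also differed. Of 10 neutrophil markers, 7 were tested, of which 0 rose and 4 fell, with sums of 1011 to 2114 CPM in LC and 213 to 368 CPM in IP + LC. All 8 airway epithelial markers, 7 of 8 markers of type 2 alveolar cells and all 7 endothelial markers fell. Their sums went from 50392 to 59480 CPM in LC to 3566 to 7569 CPM in IP + LC for the airway, from 35991 to 45092 to 6568 to 11833 CPM for type 2 cells, and from 1014 to 1776 to 369 to 469 CPM for the endothelium, so normal lung RNA was present in all 6 tumors. Of 7 proliferation genes, 6 rose, from sums of 120 to 532 CPM to 1035 to 1231 CPM, and LC replicate 1 had the highest sum of the LC group. Of 7 fibroblast markers, 2 rose and 4 fell, with sums of 1564 to 2012 and 1664 to 1771 CPM, and of 5 tested T cell markers 0 were called, with sums of 89.5 to 121 and 81.9 to 166 CPM. No marker of the 10 lists was at 0 in all tumors of a group, and the part of these cell types in the levels of the 7 genes was not tested, apart from the values per macrophage marker below.

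**Figure D2:**
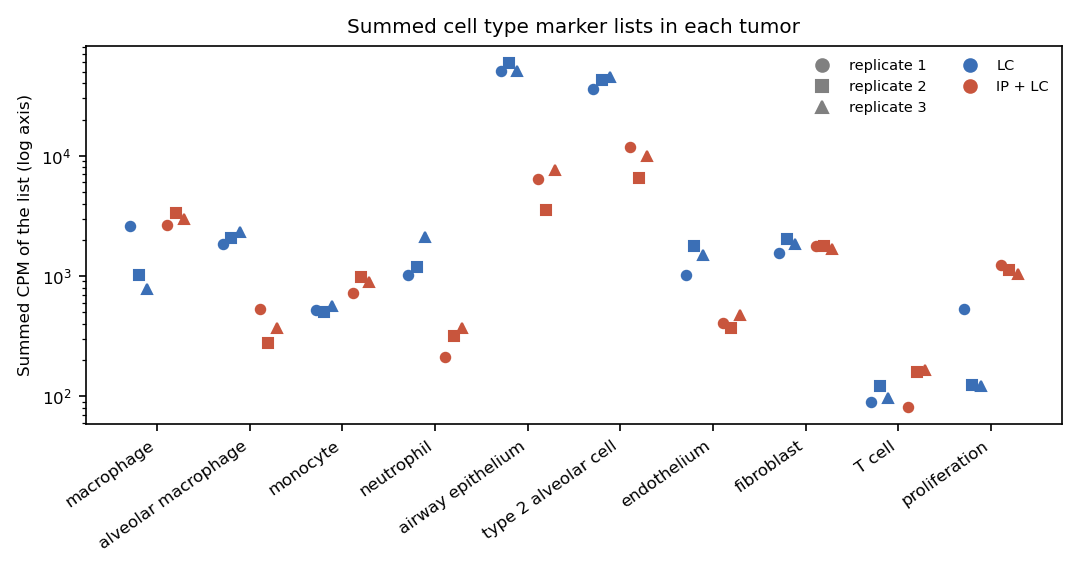
Summed level of each cell type marker list in each tumor, in CPM on a log axis, with LC in blue and IP + LC in red and the symbol shape marking the replicate. The macrophage sum of LC replicate 1, 2588 CPM, lay near the IP + LC tumors at 2643 to 3324 CPM, whereas the alveolar macrophage, neutrophil, airway, type 2 and endothelial sums were lower in every IP + LC tumor.

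When each gene was divided by the summed macrophage markers of the same tumor, 2 of the 7 genes, Acod1 and Nos2, had all IP + LC tumors above the LC tumors. On this scale 1.80% of all tested genes had all IP + LC tumors above, and nothing is read from the count of members here either, since Acod1 and Nos2 passed the filter only through the IP + LC group. Acod1 was at 0, 0.771 and 0 UMIs per 1000 macrophage marker UMIs in the LC tumors and at 16.7, 15.8 and 17.1 in the IP + LC tumors, so its IP + LC values lay close together. Nos2 was at 0.665, 2.31 and 2.19 in LC and 7.41, 15.1 and 5.62 in IP + LC. The ratios of pooled UMIs on this scale were 61.1 (95% counting interval 10.8 to 2423) for Acod1 and 6.26 (2.80 to 17.4) for Nos2. Without LC replicate 1 the ratio of Acod1 was 36.3 (6.45 to 1442), and without IP + LC replicate 2 the ratio of Nos2 was 4.0 (1.71 to 11.4).

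The other 5 genes overlapped between the groups per macrophage marker. In UMIs per 1000 macrophage marker UMIs, Cybb was at 33.3, 160 and 226 in LC and 78.2, 98.0 and 109 in IP + LC, and its log2 fold change turned to -0.55 (-1.80 to 0.71). Those of Ass1 and Gch1, which were positive on the CPM scale, turned to -0.25 (-1.5 to 1.0) and -0.52 (-1.67 to 0.62). Sod2 was at -0.97 (-2.10 to 0.15) and Slc7a2 at -1.97 (-3.38 to -0.56). The negative signs of Ass1 and Cybb depended on the complement genes C1qa, C1qb and C1qc. Those of Gch1, Sod2 and Slc7a2 stayed negative without them. The C1q genes made up 41.2% to 64.8% of the marker sum in LC and 63.4% to 68.4% in IP + LC. The C1q sum was 2.36-fold higher in IP + LC by the group means, with LC replicate 1 overlapping IP + LC, and the sum of the other 9 markers was 1.62-fold higher with no overlap. Scaled to those 9 markers, the log2 fold changes were 0.31 (-0.64 to 1.26) for Ass1, 0.08 (-1.02 to 1.18) for Cybb, -0.024 (-0.69 to 0.64) for Gch1, -0.42 (-1.10 to 0.27) for Sod2 and -1.40 (-2.70 to -0.10) for Slc7a2, and these 5 genes still overlapped between the groups. The pooled ratios were then 83.0 (14.8 to 3295) for Acod1 and 8.52 (3.81 to 23.6) for Nos2. Within the LC group the values per macrophage marker of every member except Acod1, which was at 0 in replicates 1 and 3, were lowest in LC replicate 1, the tumor with the highest macrophage sum of that group.

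**Figure D3:**
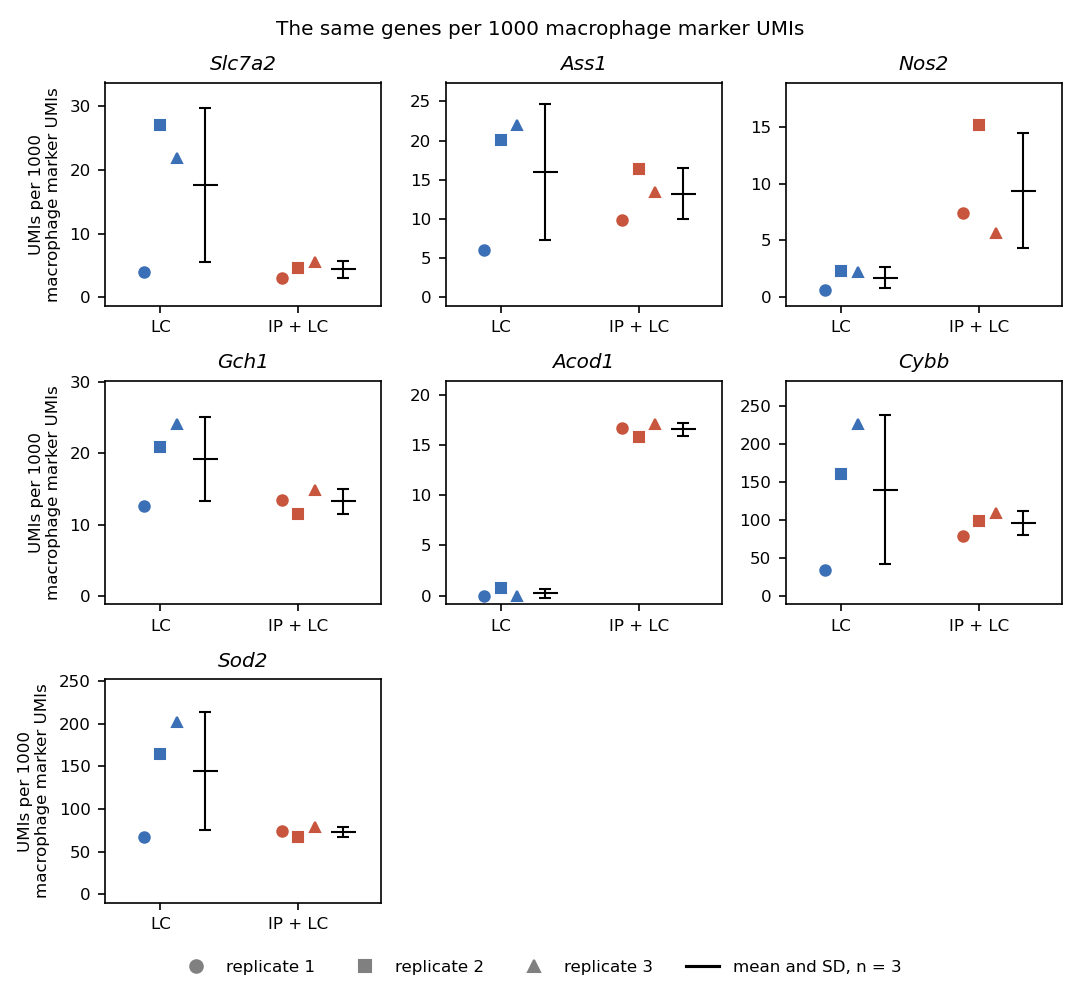
UMIs of each of the 7 genes per 1000 summed UMIs of 12 macrophage markers in the same tumor, with LC in blue and IP + LC in red and the mean and SD of 3 tumors beside them. Acod1 and Nos2 lay above the LC tumors in every IP + LC tumor, whereas Ass1, Gch1, Cybb, Sod2 and Slc7a2 overlapped.

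Further genes of the same routes were taken from 8 lists, of which 121 genes, none of them a member, are reported. Of these, 119 were found in the counts, and 99 were tested, of which 17 rose (17.2%) and 20 fell (20.2%), beside 16.8% and 19.6% of all genes. Adjusted p-values below are from edgeR over all tested genes. Of the genes named below, Nostrin, Oat, Odc1, Srm, Slc25a1, Idh1, Mdh1, Prdx5 and Klf4 were called with all tumors but not without IP + LC replicate 2, and each of them also lost its call without at least 1 other tumor. Of the 20 genes that fell, 2, Pcbd1 and Pparg, passed the filter on low counts only through the LC group, so nothing is read from their calls.

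In arginine transport and metabolism, 2 of 13 tested genes rose and 3 fell, with a median log2 fold change of -0.14 against 0.02 over all genes. Gatm, which uses arginine to make guanidinoacetate for creatine, was at 32.7, 11.8 and 10.2 CPM in the LC tumors and 128, 172 and 138 CPM in the IP + LC tumors. All IP + LC tumors were far above LC, and the log2 fold change was 3.15 ± 0.39 (SE, adjusted p = 0.00124). Slc7a1, another cationic amino acid transporter, rose by 1.66 ± 0.33 on the log2 scale (adjusted p = 0.00777), whereas Slc7a2 was not called. Ddah2, which breaks down an inhibitor of nitric oxide synthases, fell by 1.54 (adjusted p = 0.00526), Nostrin, which binds the endothelial synthase, fell by 1.56 (adjusted p = 0.0222), and Oat, which uses ornithine, fell by 0.67 (adjusted p = 0.0287).

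In polyamine metabolism, 2 of 11 tested genes rose and 1 fell, with a median of 0.30. Odc1, the ornithine decarboxylase, was at 68.9, 23.5 and 14.4 CPM in LC and 70.3, 85.8 and 69.0 CPM in IP + LC. LC replicate 1 was at the IP + LC level, and the log2 fold change was 1.22 ± 0.46 (SE, adjusted p = 0.0783). Srm, the spermidine synthase, rose by 1.5 ± 0.42 (adjusted p = 0.0288), and Oaz2, an inhibitor of ornithine decarboxylase, fell by 1.22 ± 0.19 (adjusted p = 0.00252). Odc1 shares 62.8% of its longest coding transcript, and Oaz2 25.6%, with other genes.

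In tetrahydrobiopterin synthesis and recycling, 0 of 6 tested genes rose and 2, Pts and Pcbd1, were called lower, with a median of -0.50. Pts, which acts after Gch1, fell by 0.95 ± 0.23 (adjusted p = 0.0154). Pcbd1, which takes part in recycling, had 13, 16 and 16 UMIs in the LC tumors and 5, 7 and 6 in the IP + LC tumors, a log2 fold change of -1.90 ± 0.38, and its call is not read for the reason given above. Gch1 was higher while the enzyme after it was lower on the CPM scale.

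Around itaconate, in its handling and in the tricarboxylic acid cycle, 0 of 24 tested genes rose and 4 fell, with a median of -0.15. Abcg2, an exporter, fell by 1.53 (adjusted p = 0.0150), the citrate carrier Slc25a1 fell by 0.68 (adjusted p = 0.0354), the cytosolic isocitrate dehydrogenase Idh1 fell by 0.76 (adjusted p = 0.0492) and the cytosolic malate dehydrogenase Mdh1 fell by 0.49 (adjusted p = 0.0805). The log2 fold changes of the list ran from -1.53 to 0.54.

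The partners of Cybb in the NADPH oxidase 2 complex reported here were all tested, and 3 of 7 rose and 0 fell, with a median of 0.65. Cyba, the other membrane subunit, was at 245, 177 and 168 CPM in the LC tumors and 275, 325 and 323 CPM in the IP + LC tumors, and rose by 0.65 ± 0.22 (adjusted p = 0.0526). The cytosolic subunit Ncf4 rose by 0.85 ± 0.24 (adjusted p = 0.0313), and the GTPase Rac1 rose by 0.71 ± 0.22 (adjusted p = 0.0410). Ncf1, also a cytosolic subunit, was at 0.35 (adjusted p = 0.334), Rac2 at 0.07 (adjusted p = 0.859), the chaperone Cybc1 at 0.65 (adjusted p = 0.149) and the proton channel Hvcn1 at -0.62 (adjusted p = 0.120). None of the 3 was called without IP + LC replicate 2 (log2 fold changes of 0.63 for Cyba, 0.74 for Ncf4 and 0.71 for Rac1), without LC replicate 2 (0.58, 0.83 and 0.69) or after thinning every library to the smallest (0.57, 0.66 and 0.54). Rac1 was also not called without LC replicate 3 or IP + LC replicate 1, and Cyba was called only with all tumors or without LC replicate 1 among the fits that left out a tumor. A share of 51.4% of the exonic bases of Rac1 lie opposite to Daglb. Of the other NADPH oxidase genes only Nox4 had enough UMIs, and it fell by 2.23 ± 0.36 (adjusted p = 0.00339).

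In the removal of superoxide and peroxide, 2 of 21 tested genes rose and 7 fell, with a median of -0.15. Txnrd1, the cytosolic thioredoxin reductase, rose by 1.31 ± 0.19 (adjusted p = 0.00215) and Prdx5 by 0.78 ± 0.24 (adjusted p = 0.0428). The other dismutases were lower, with Sod3, the secreted form, at -1.18 ± 0.21 (adjusted p = 0.00450) and Sod1, the cytosolic form, at -0.94 ± 0.20 (adjusted p = 0.00955). That of Sod2 was 0.40, with an interval that held 0. Gpx3, a secreted glutathione peroxidase, fell by 1.75 (adjusted p = 0.00197) and Prdx6 fell by 1.06 (adjusted p = 0.00850). Sod1 shares 72.5% of its longest coding transcript with another gene.

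Among cytokines, receptors and transcription factors upstream of these enzymes, 8 of 16 tested genes rose and 2, Klf4 and Pparg, were called lower, with a median of 0.72. Irf1 was at 164, 106 and 60.2 CPM in the LC tumors and 405, 416 and 339 CPM in the IP + LC tumors, so the groups were far apart. The interferon regulatory factors Irf1 and Irf8 rose by 1.84 ± 0.33 (adjusted p = 0.00511) and 1.30 ± 0.23 (adjusted p = 0.00470), and Cebpb, a factor of myeloid cells, rose by 1.06 ± 0.26 (adjusted p = 0.0188). Klf4 fell by 1.55 (adjusted p = 0.0492). Pparg had 9, 19 and 23 UMIs in LC and 8, 11 and 11 in IP + LC, a log2 fold change of -1.30, and its call is likewise not read. A share of 20.7% of the exonic bases of Cebpb lies opposite to Tmem189. The cytokines Ifng and Tnf had too few UMIs for the test and are given after their values were seen. Ifng had 0 UMIs in every LC tumor and 8, 14 and 11 UMIs in the IP + LC tumors, at least 7.47-fold higher when the LC group was set to 3 UMIs in all. Tnf had 0, 3 and 0 UMIs in LC and 8, 13 and 12 in IP + LC, a ratio of 7.47 (95% counting interval 2.34 to 38.1).

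**Figure D4:**
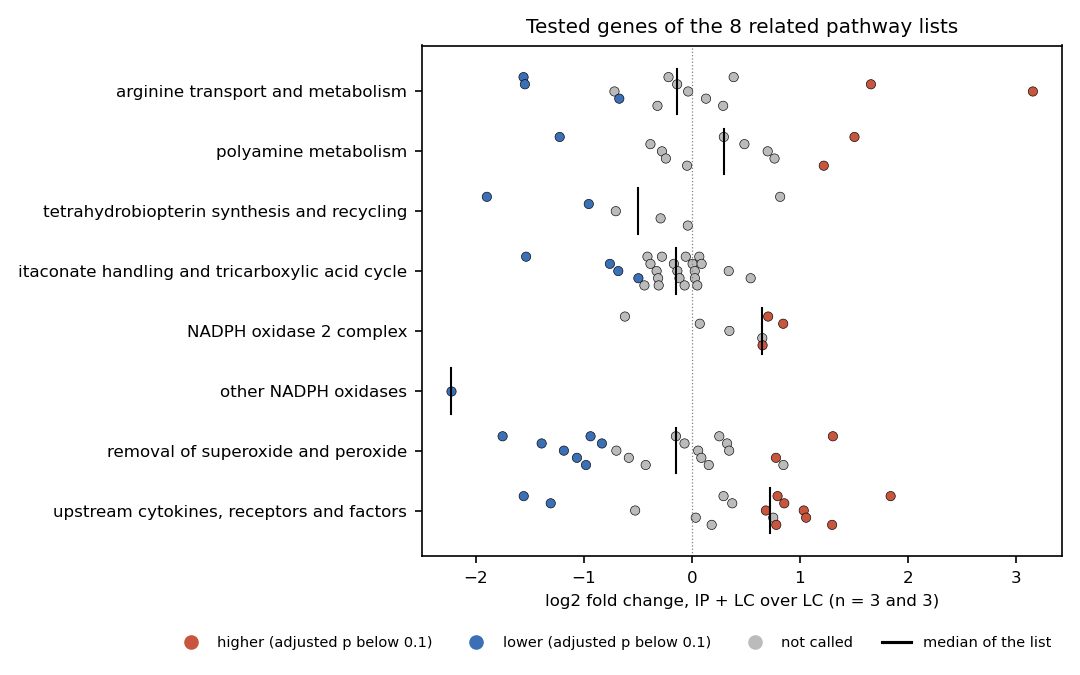
Log2 fold change of IP + LC over LC for each tested gene of the 8 lists, with genes called higher in red, called lower in blue and not called in grey, and the median of each list as a bar. The medians of the NADPH oxidase 2 complex (0.65) and of the upstream list (0.72) were the highest, and of the 99 genes 17 were called higher and 20 lower.

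Genes with a profile over the 6 tumors most like each member were found by the root mean square difference of log2(CPM + 4), centred on the mean of each gene, where a smaller value means a closer match. For Acod1 they were Gbp2 (0.16), Calhm6 (0.33) and Iigp1 (0.33), and for Nos2 they were Gbp2b (0.23), Ifi211 (0.32) and Fcgr4 (0.32). For Cybb the nearest were Ifi203 (0.06), Cd180 (0.08) and Mndal (0.12). The nearest to Ass1 were Ptk2b, AW112010 and H2-Ab1 (each 0.15). For Gch1 they were Clns1a, G6pdx and Thoc5 (0.06), for Sod2 they were Cox10 (0.04), Agfg2 (0.05) and Tor1aip1 (0.06), and for Slc7a2 they were Bicral, Cmah and Gimap3 (0.14). All profiles share the same 6 libraries and their depths.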

How the data were processed

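RNA of 3 LC and 3 IP + LC tumors was sequenced at the 3′ end with barcoded oligo-dT primers from 180 ng of total RNA per library, with a UMI of 10 nucleotides. Per the submitters' processing notes, the authors used UMI-tools 1.1.1, Trim Galore 0.6.7, HISAT2 2.2.1 and featureCounts 2.0.1 on GRCm38. The authors deposited raw UMI counts by gene, with 1 file for each tumor. The annotation release and the use of strand are not given in the sources used here.

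From these counts, genes were kept by filterByExpr (minimum count 10, minimum total 15), libraries were scaled by TMM, and the groups were compared in R 4.3.3 with edgeR 4.0.16 by the quasi-likelihood test without a block, with Benjamini-Hochberg adjustment over all tested genes and a limit of 0.1. Replicates were separate mice. In simulated data for this comparison over 10959 genes, the fit called 182 of 200 genes changed by 2 on the log2 scale and 14 unchanged genes. Smaller changes were not simulated, and no simulated tumor stood apart as LC replicate 1 did, so these numbers do not cover the smaller changes reported. The genes and all lists were chosen with earlier results of these data known. Some members, some genes of the lists and planned shares of UMIs between members are not reported here. The genes named were the 7 members, up to 4 called genes in each direction per list by p-value, every tested gene of the NADPH oxidase 2 complex, marker lists by their sums, and the 3 genes with the nearest profile to each member. Asl, which was not called, and the untested Ifng and Tnf were named outside this rule. A bound against 3 UMIs had been planned for groups at or below that limit. Acod1 and Nos2, with 1 and 6 UMIs in LC, instead have a ratio of pooled UMIs with an exact conditional binomial 95% interval. Coordinates and overlaps came from GENCODE M21 on GRCm38, and copies were found by blastn 2.17.0 (at least 81 nucleotides, 95% identity). Promoters came from RefSeq on GRCm38.p6. Alternatives were other scalings, filters and limits, robust edgeR, DESeq2 1.42.0, a replicate block, thinning to 592733 UMIs with seed 1, macrophage marker scaling and each tumor left out.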

Additional observations from a re-analysis of the deposited data

How the results depend on the processing

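Of the counts recomputed under the alternatives, 65 stayed within 1.5 times the value reported and 15 did not. Of the values of single members, 84 moved by less than 1 SD between replicates, 28 moved by more, and 4 values of called members changed sign. The genes called in all numbered 4088, against 3181 with DESeq2, 2413 after thinning and 2265 to 6691 when each tumor was left out, the highest without LC replicate 1 and the lowest without IP + LC replicate 2. The members called higher, 5 of 7, numbered 3 after thinning, without Gch1 and Cybb, 4 with DESeq2 and at an adjusted p-value of 0.05, without Gch1, 2 when at least 10 UMIs were required in every library, since fewer genes were then tested, and 2 to 6 when each tumor was left out. The members called lower numbered 0 to 1 in the same fits. Of the 99 tested genes of the lists, 17 were called higher, against 11 after thinning and 7 to 33 with a tumor left out, and 20 were called lower, against 13 to 24. Scaled to macrophage markers, the log2 fold changes of Ass1 (-0.25), Cybb (-0.55) and Gch1 (-0.52) were reversed, and that of Sod2, which was not called, also changed sign (-0.97). Without the 3 C1q genes among the markers, Gch1 was at -0.024, and Ass1 and Cybb were positive. Leaving out each tumor or the C1q genes on that scale was chosen after seeing the data. The ratio of Acod1 has no value without LC replicate 2, which held its only LC UMI. With the replicate block, 3410 genes and 4 members were called, without Gch1, and Cyba and Mdh1 of the named list genes lost their calls. Same-numbered tumors had correlations of deviations of 0.026, -0.120 and 0.112, against -0.142 to 0.126 for the other pairs. Not every tumor correlated best with its own number. With deviations taken from means of 3 tumors, these values cannot decide whether the numbers paired the tumors. At the depth of LC replicate 1, 3 UMIs correspond to 5.17 CPM.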
